A study of Bos taurus with 9 samples.

Results

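Bovine blastocysts that had been vitrified and warmed without α-ketoglutarate (AKG) were compared with blastocysts that had not been vitrified. A blastocyst is the early embryo at the stage when a fluid-filled cavity, an inner cell mass and an outer trophectoderm have formed. The members are all 47 genes of the deposited series table, out of 47 genes deposited for the whole series, and 6 of the 9 libraries of the series carry this contrast. The vitrified blastocysts, labelled vitrified-warmed (AKG-) and called AKG-free here, gave 3 libraries, and the unvitrified blastocysts, labelled Control, gave 3. A further 3 libraries from blastocysts vitrified and warmed with AKG entered the statistical fit only as a source of spread. All embryos were labelled female *Bos taurus*. The labels do not state the cooling and warming conditions, the dose and timing of AKG, the number of embryos in a library or whether libraries came from separate embryo batches. The p-values therefore measure only how much these libraries vary, and that variation may be technical.

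Vitrification cools cells so fast, in concentrated cryoprotectant, that water becomes a glass instead of ice. Cells are exposed to osmotic shrinking and swelling, and cryopreservation of embryos is commonly discussed in terms of protein unfolding, membrane and lipid damage, mitochondrial function and calcium balance. The trophectoderm of ruminants later forms the trophoblast, which secretes pregnancy-associated glycoproteins.

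The table is a list of differentially expressed genes, which the authors preselected from these same libraries. How they chose them is not stated in the labels or file headers. Counts of genes that differ, and the adjusted p-values below, thus describe how far the listed genes separate and are not independent evidence that they do. No gene off the list was analysed here. Of 25 genes on an oxidative stress list, 11 of an apoptosis list, 21 of the tricarboxylic acid cycle and 11 of endoplasmic reticulum stress, 0 are on the table. CRYAB was the 1 listed gene of 16 on a heat shock list, and PAG11 the 1 of 12 trophectoderm markers. Markers of the inner cell mass, primitive endoderm, cumulus cells, blood and sperm were not among the listed genes, so the labelled tissue could not be checked against its defining markers.

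Levels are given as FPKM, the fragments of a gene divided by its length and by the library's mapped fragments, as deposited, for libraries 1, 2 and 3 of a group in that order. Replicate numbers are used here only to name libraries. Relative sequencing depth was 1.11, 1.01 and 1.17 in AKG-free libraries, against 1.10, 0.793 and 0.91 in control libraries. The summed counts of the listed genes differed far more, with 55940, 207900 and 362783 in AKG-free libraries against 38486, 36424 and 32230 in control libraries. Reads were found for 25, 36 and 30 of the 47 genes in AKG-free libraries and for 25, 23 and 24 in control libraries. AKG-free library 1 was thus the nearest to the controls by both measures, and libraries 2 and 3 lay above them. The depositors' name for the series data holds the term scRNA-Seq, and the labels do not state the number of embryos in a library. Where a library holds many cells, more cells of a type and more transcript in each cell cannot be told apart.

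By group means, 38 of the 47 genes were higher in AKG-free libraries and 9 were lower. Reads were present in all 6 libraries for 19 genes, of which 14 had the higher mean in AKG-free libraries and 5 the lower. A further 22 genes had reads in AKG-free and in no control library (46.8% of the list), and 18 of these 22 had reads in only 1 AKG-free library. The reverse, reads in control and in no AKG-free library, was seen for NPSR1, TPRG1, GATA5 and ENSBTAG00000053922. Every AKG-free library exceeded every control library for 15 genes (31.9% of the list), and every AKG-free library lay below every control library for 7 (14.9%).

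edgeR's quasi-likelihood test on the deposited counts, adjusted by Benjamini-Hochberg over the 47 genes at a threshold of 0.05, called 8 genes higher (17.0% of the list) and 5 lower (10.6%), 13 in all (27.7%). At an unadjusted p under 0.05 these were 15 and 8. Because the list was selected on these libraries, these shares carry no information about vitrification beyond the list. The calls sit close to the threshold and depend on the libraries. Dropping AKG-free library 1, 2 or 3 left 10, 5 and 0 genes called higher and 3, 3 and 2 called lower. Dropping control library 1, 2 or 3 left 0, 0 and 0 called higher and 1, 0 and 3 called lower. Dropping an AKG-treated library in the same order left 0, 0 and 1 called higher and 2, 0 and 2 called lower. These 9 edgeR fits had 16 to 23 genes at an unadjusted p under 0.05. When TMM factors over the listed genes were used, the split became 1 higher and 5 lower. That scaling takes most of the genes as unchanged and gave the 21 genes with reads in both groups a median log2 fold change of 0.71 in place of 2.37, a median shift of -1.64 per gene. Other fits called most of the genes they tested. DESeq2 called 42 of the 47 genes. Of the 29 genes with a mean of at least 0.5 FPKM, edgeR called 23 and limma with a pseudocount of 1 called 19. A pass in these fits thus sets a gene little apart from the rest of the list. "Rose" and "fell" are used below only for the 13 called genes.

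**Figure D1:**
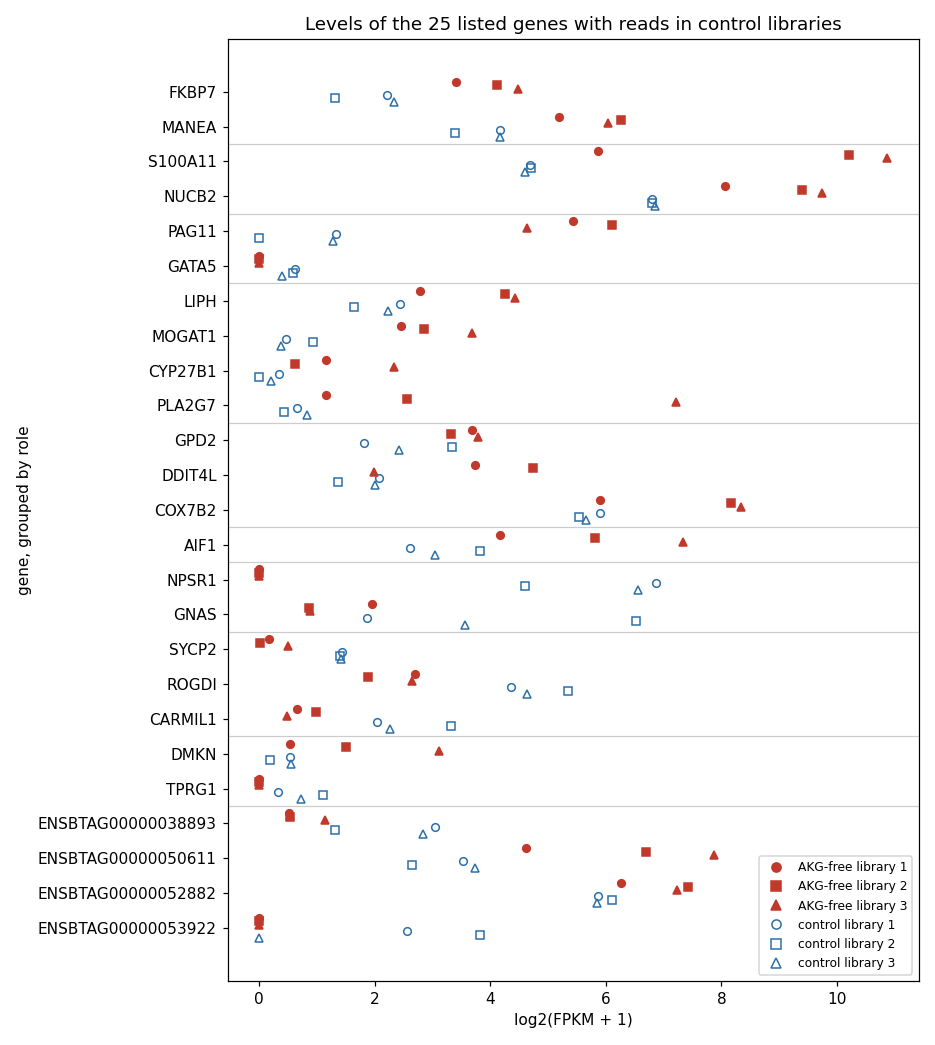
Level of each listed gene with reads in control libraries, as log2(FPKM + 1) on the horizontal axis, with genes grouped by role down the page. Filled red symbols are the 3 AKG-free libraries and open blue symbols the 3 control libraries. S100A11 and NUCB2 lie far to the right of their controls in AKG-free libraries 2 and 3, and NPSR1, GATA5 and TPRG1 lie at 0 in all AKG-free libraries.

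Of the 3 genes of protein folding and glycan processing, all had separate groups, against 46.8% of the list, and 2 were called higher by edgeR, against 17.0% of the list. CRYAB (chromosome 15, 22242326 to 22246349, minus strand) encodes αB-crystallin, a small heat shock protein that holds unfolding proteins in solution. Its level was 7.25, 9.47 and 17.3 FPKM in AKG-free libraries, against 0, 0 and 0 FPKM in control libraries. The reads behind these levels were 699, 837 and 1763 counts in AKG-free libraries against none in the controls, so detection did not rest on a few reads. CRYAB rose at least 303-fold, taking 3 counts in each control library as the floor (edgeR adjusted p = 0.0438, and 0.0227 to 0.118 with 1 library left out).

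FKBP7 (chromosome 2, 18418695 to 18426410), a prolyl isomerase of the endoplasmic reticulum, had 9.67, 16.3 and 21.4 FPKM in AKG-free libraries against 3.63, 1.49 and 4.03 FPKM in control libraries. The lowest AKG-free library was still above the highest control. FKBP7 rose by a log2 fold change of 2.37 (SE 0.733, edgeR adjusted p = 0.0497). It passed in 1 of the 9 fits that left out 1 library (edgeR adjusted p = 0.0439 to 0.13). With TMM factors its log2 fold change was 0.73 (edgeR adjusted p = 0.291). MANEA (chromosome 9, 54296791 to 54379111), a Golgi mannosidase that trims glucosylated N-glycans, had 35.5, 75.6 and 64.5 FPKM in AKG-free libraries against 17.0, 9.47 and 16.9 FPKM in control libraries. Its groups did not overlap, but the log2 fold change of 2.02 (SE 0.682) missed the threshold in edgeR (adjusted p = 0.0558). MANEA passed in DESeq2 (adjusted p = 1.08e-06), which called 42 of the 47 listed genes, and in limma with a pseudocount of 1 (0.00679). MANEA did not pass in edgeR with TMM factors (adjusted p = 0.517).

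Both genes grouped here as calcium binding rose in edgeR, where 17.0% of the list did, and both were already well expressed in controls. The calcium-responsive AIF1 was placed with inflammation instead, and was not called (edgeR adjusted p = 0.0536). S100A11 (chromosome 3, 18727498 to 18733580), an EF-hand calcium sensor that binds annexins, had 57.4, 1178 and 1866 FPKM in AKG-free libraries, against 24.9, 25.1 and 23.4 FPKM in control libraries. Control libraries were nearly equal, whereas the AKG-free libraries spread 32.5-fold from lowest to highest. S100A11 rose by a log2 fold change of 5.40 (SE 1.36, edgeR adjusted p = 0.0438), which was 4.66 without AKG-free library 3 (edgeR adjusted p = 0.0542). With AKG-free libraries 2 and 3 both left out, an alternative chosen after seeing the data, library 1 alone gave 1.23 (edgeR adjusted p = 0.192). S100A11 held 9.51%, 48.2% and 50.3% of the listed genes' counts in AKG-free libraries, against 5.95%, 4.59% and 5.54% in control libraries.

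NUCB2 (chromosome 15, 35156660 to 35179353), which binds calcium in the Golgi and is the precursor of the peptide nesfatin, had 265, 674 and 859 FPKM in AKG-free libraries against 111, 111 and 114 FPKM in control libraries. Its AKG-free libraries had the same order as those of S100A11, within a narrower 3.24-fold spread. By group mean NUCB2 was the most abundant listed gene in control libraries, and it rose by a log2 fold change of 2.42 (SE 0.755, edgeR adjusted p = 0.0497). It passed in 1 of the 9 fits that left out 1 library (edgeR adjusted p = 0.0322 to 0.135). With TMM factors its log2 fold change was 0.71 (edgeR adjusted p = 0.259).

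The 2 lineage-associated genes moved in opposite directions. PAG11 (chromosome 29, 39438824 to 39456485), a pregnancy-associated glycoprotein related to aspartic peptidases, had 42.2, 67.9 and 24.0 FPKM in AKG-free libraries, against 1.52, 0 and 1.44 FPKM in control libraries. All AKG-free libraries stood far above the controls, at 42.9, 69.0 and 24.4 times the control mean. The ratio of group means was 45.5, yet edgeR missed the threshold (log2 fold change 5.50, SE 2.08, adjusted p = 0.0779), with 1 control library at 132 counts, 1 at 104 and 1 at 0. PAG11 passed in DESeq2 (adjusted p = 0.000676), which called 42 of the 47 listed genes, and in limma with a pseudocount of 1 (0.0026). PAG11 did not pass in edgeR with TMM factors (adjusted p = 0.224). Cattle carry many PAG genes of similar sequence, among which reads could have been divided. GATA5 (chromosome 13, 54799166 to 54809284), a zinc-finger transcription factor of endoderm and heart, was low throughout, with 0, 0 and 0 FPKM in AKG-free libraries against 0.536, 0.497 and 0.312 FPKM in control libraries. GATA5 fell at least 23.0-fold (edgeR adjusted p = 0.0204) on 83, 56 and 40 counts in control libraries, and passed in 6 of the 9 fits that left out 1 library.

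Of 6 enzymes of lipid and steroid metabolism, 4 had separate groups, all higher in AKG-free libraries (31.9% of the list), and edgeR called 2 higher (17.0% of the list). MOGAT1 (chromosome 2, 110843395 to 110873230), which acylates monoacylglycerol to diacylglycerol, had 4.52, 6.27 and 11.9 FPKM in AKG-free libraries against 0.381, 0.919 and 0.303 FPKM in control libraries. All AKG-free libraries stood well clear of the controls, and MOGAT1 rose by a log2 fold change of 3.81 (SE 0.920, edgeR adjusted p = 0.0438), which was 4.45 without control library 2 (edgeR adjusted p = 0.0701). PLA2G7 (chromosome 23, 19924777 to 19963342), a secreted phospholipase that hydrolyses platelet-activating factor and oxidised phospholipids, had 1.22, 4.87 and 147 FPKM in AKG-free libraries, against 0.574, 0.348 and 0.781 FPKM in control libraries. A single library carried most of this difference: AKG-free library 3 was 30.1-fold above library 2. PLA2G7 rose by a log2 fold change of 6.47 (SE 1.97, edgeR adjusted p = 0.0497), which was 2.41 without AKG-free library 3 (edgeR adjusted p = 0.0845).

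LIPH (chromosome 1, 81636267 to 81688516), a membrane lipase that makes lysophosphatidic acid, had 5.89, 18.1 and 20.6 FPKM in AKG-free libraries against 4.42, 2.11 and 3.68 FPKM in control libraries. CYP27B1 (chromosome 5, 55698030 to 55704141), the hydroxylase that activates vitamin D, had 1.24, 0.545 and 4.03 FPKM in AKG-free libraries against 0.27, 0 and 0.151 FPKM in control libraries. The groups were separate for both, but neither passed in edgeR, with log2 fold changes of 2.13 (SE 0.846, adjusted p = 0.0832) for LIPH and 3.77 (SE 1.83, adjusted p = 0.132) for CYP27B1. The CYP27B1 value was 2.65 without AKG-free library 3 and 4.65 without control library 1 (edgeR adjusted p = 0.188 and 0.172). AKR1D1, a steroid reductase of bile acid synthesis, had reads in AKG-free library 1 only (2.35 FPKM). HMGCLL1, a lyase that can make ketone bodies, had reads in AKG-free library 2 only (1.24 FPKM).

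edgeR over the 47 genes called 0 of the 3 genes of mitochondrial energy metabolism and mTOR stress signalling, where it called 27.7% of the list, with COX7B2 and DDIT4L at an unadjusted p under 0.05, and 2 of the 3 had overlapping groups. COX7B2 passed in DESeq2 (adjusted p = 0.00131), limma with a pseudocount of 1 (0.0368) and edgeR on the 29 genes of at least 0.5 FPKM (0.0272), and DDIT4L passed in DESeq2 (0.00368) and in that edgeR fit (0.0301). Of the listed genes, DESeq2 called 42 of 47 and that edgeR fit 23 of 29. COX7B2 (chromosome 6, 65334350 to 65334586), a subunit form of cytochrome c oxidase with a close paralogue that could share reads, had 58.8, 285 and 322 FPKM in AKG-free libraries against 58.4, 45.4 and 49.4 FPKM in control libraries. AKG-free library 1 matched the highest control, so the log2 fold change of 2.12 (SE 0.823, edgeR adjusted p = 0.0816) came from the other libraries. GPD2 (chromosome 2, 39653910 to 39803015), which passes electrons from glycerol 3-phosphate to the respiratory chain, had 11.9, 9.05 and 12.9 FPKM in AKG-free libraries against 2.53, 9.07 and 4.35 FPKM in control libraries. The overlap came from control library 2, and the log2 fold change of 1.08 (SE 0.746, edgeR adjusted p = 0.187) was 1.71 without that library (edgeR adjusted p = 0.156). DDIT4L (chromosome 6, 24526441 to 24531397), an inhibitor of mTOR complex signalling, had 12.3, 25.8 and 2.95 FPKM in AKG-free libraries against 3.20, 1.58 and 3.01 FPKM in control libraries. AKG-free library 3 was the highest AKG-free library for 12 of the 16 genes with control reads and a higher AKG-free mean. For DDIT4L that library was at control level (log2 fold change 2.39, SE 0.958, edgeR adjusted p = 0.0832). Without AKG-free library 2 the DDIT4L value was 1.55 (edgeR adjusted p = 0.137).

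Of 3 genes linked to inflammation, edgeR called 1 higher (17.0% of the list), and all had their higher mean in AKG-free libraries, as did 38 of the 47 listed genes. CCL27 (chromosome 8, 76027403 to 76028140), a chemokine best known from skin, had 3.91, 12.2 and 4.56 FPKM in AKG-free libraries, against 0, 0 and 0 FPKM in control libraries. It rose at least 53.6-fold against the floor of 3 counts per control library (edgeR adjusted p = 0.0497), or at least 32.9-fold without AKG-free library 2 (edgeR adjusted p = 0.0628), and passed in 0 of the 9 fits with a library dropped. AIF1 (chromosome 23, 27685449 to 27687723), a calcium-responsive actin-binding protein best known from macrophages, had 16.9, 55.0 and 160 FPKM in AKG-free libraries against 5.11, 13.2 and 7.29 FPKM in control libraries. Its groups were separate and its AKG-free libraries spread 9.45-fold (log2 fold change 3.18, SE 1.04, edgeR adjusted p = 0.0536). Without AKG-free library 3 the AIF1 log2 fold change was 2.08 (edgeR adjusted p = 0.0945). AIF1 passed in DESeq2 (adjusted p = 0.000352), which called 42 of the 47 listed genes, and in limma with a pseudocount of 1 (0.0184). AIF1 did not pass in edgeR with TMM factors (adjusted p = 0.259). PYCARD (chromosome 25, 27285067 to 27286399), the adaptor that links inflammasome sensors to caspase, had 0, 5.77 and 1.63 FPKM in AKG-free libraries against 0, 0 and 0 FPKM in control libraries, and missed the threshold in edgeR (adjusted p = 0.111).

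edgeR over the 47 genes called 0 of the 4 receptor, G protein and hormone genes, where it called 27.7% of the list, with NPSR1 and GNAS at an unadjusted p under 0.05. Other fits made calls here. DESeq2, which called 42 of the 47 listed genes, called NPSR1 lower (adjusted p = 5.65e-18) and GNAS lower (0.00105). DESeq2 also called CCK higher (adjusted p = 1.06e-07), on reads in 1 library and with its outlier handling switched off. NPSR1 also passed in limma with a pseudocount of 1 (adjusted p = 0.00679) and in edgeR on the 6 libraries (0.0494). edgeR on the 29 genes of at least 0.5 FPKM, which called 23 of them, called both genes of this group that it tested, NPSR1 and GNAS. NPSR1 (chromosome 4, 62120709 to 62274639), the receptor of neuropeptide S, had 0, 0 and 0 FPKM in AKG-free libraries, against 116, 23.2 and 93.6 FPKM in control libraries. No AKG-free library had a read of NPSR1, while control libraries had 11420, 1645 and 7629 counts. The control mean was at least 2531-fold above an AKG-free floor of 3 counts per library, and edgeR gave an adjusted p of 0.0558. The AKG-treated libraries, which entered that fit as a source of spread, had 57.3, 0 and 0.128 FPKM of NPSR1. GNAS (chromosome 13, 57465320 to 57532635), the imprinted locus of the stimulatory G protein α subunit, had 2.86, 0.817 and 0.834 FPKM in AKG-free libraries against 2.65, 90.6 and 10.8 FPKM in control libraries. AKG-free library 1 and control library 1 were alike, and control library 2 set most of the difference, with a log2 fold change of -4.52 (SE 1.66, edgeR adjusted p = 0.0731) that was -2.15 without that library (edgeR adjusted p = 0.200) and -5.38 without AKG-free library 1 (edgeR adjusted p = 0.0962). CCK, which encodes the gut and brain hormone cholecystokinin, had reads in AKG-free library 3 only (1.53 FPKM), and INSL3, a hormone of testicular Leydig cells, in AKG-free library 2 only (1.37 FPKM).

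Among genes of the cytoskeleton, vesicles and meiosis, all 3 lay lower in every AKG-free library than in any control (14.9% of the list), and 2 fell in edgeR (10.6% of the list). ROGDI (chromosome 25, 3872510 to 3882364), a leucine zipper protein linked in human to brain and tooth enamel development, had 5.49, 2.71 and 5.30 FPKM in AKG-free libraries against 19.6, 39.5 and 23.9 FPKM in control libraries. It fell by 2.62 on the log2 scale (SE 0.724, edgeR adjusted p = 0.0453), and passed in 1 of the 9 fits that left out 1 library. CARMIL1 (chromosome 23, 32267215 to 32573502), which releases capping protein from actin filament ends, had 0.573, 0.992 and 0.396 FPKM in AKG-free libraries against 3.12, 9.01 and 3.81 FPKM in control libraries. It fell by 3.02 on the log2 scale (SE 0.803, edgeR adjusted p = 0.0453), and the log2 fold change was -2.40 without control library 2 (edgeR adjusted p = 0.0955). SYCP2 (chromosome 13, 56624611 to 56685728), a lateral element protein of the synaptonemal complex of meiosis, had 0.128, 0.0128 and 0.409 FPKM in AKG-free libraries against 1.71, 1.64 and 1.67 FPKM in control libraries. Its controls were nearly equal, and its log2 fold change of -3.17 (SE 1.37) missed the threshold in edgeR (adjusted p = 0.10), and was -4.53 without AKG-free library 3 (adjusted p = 0.0654). All genes of this group were lower in AKG-free library 1 as well, the AKG-free library nearest to the controls by summed counts.

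Of 3 genes named for epithelia, 1 fell in edgeR, where 10.6% of the list did. TPRG1 (chromosome 1, 78014932 to 78184743), named as a target of the epithelial transcription factor p63, had 0, 0 and 0 FPKM in AKG-free libraries against 0.26, 1.16 and 0.662 FPKM in control libraries. TPRG1 fell at least 28.1-fold (edgeR adjusted p = 0.0204) and passed in 7 of the 9 fits that left out 1 library, the most of any called gene. It also passed in DESeq2 (adjusted p = 3.97e-09), which called 42 of the 47 listed genes, and in edgeR with TMM factors (0.00973). It missed in limma with a pseudocount of 1 (adjusted p = 0.0621) and in edgeR on the 6 libraries (0.0537). The control counts behind it were only 32, 102 and 67, and without control library 2 the bound was 18.6-fold (edgeR adjusted p = 0.0521). DMKN (chromosome 18, 46166501 to 46178470), a secreted protein of the skin, had 0.442, 1.83 and 7.62 FPKM in AKG-free libraries against 0.446, 0.144 and 0.475 FPKM in control libraries. AKG-free library 1 lay within the control range, and the log2 fold change of 3.18 (SE 1.31, edgeR adjusted p = 0.0887) was 1.65 without AKG-free library 3. UPK3A, a membrane protein of the bladder lining, had reads in AKG-free library 3 only (1.59 FPKM).

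The 2 proteases on the list were at low levels, and edgeR over the 47 genes called 0 of them, also at an unadjusted p under 0.05. DESeq2, which called 33 of the 47 genes higher, called PRSS48 (adjusted p = 0.0275) and MMP19 (1.06e-07) higher. The MMP19 call rested on a single library, with the outlier handling of DESeq2 switched off. PRSS48, a serine protease, had 1.22, 1.39 and 0 FPKM in AKG-free libraries against 0, 0 and 0 FPKM in control libraries. MMP19, a matrix metalloproteinase, had reads in AKG-free library 3 only (1.18 FPKM). Single-library reads were also found for TMEM217 (2.56 FPKM) and FAM237B (3.18 FPKM) in AKG-free library 2, and for ANKRD22 (1.06 FPKM) and ANKRD66 (1.72 FPKM) in AKG-free library 3.

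Of the 12 genes without a symbol, 10 had the higher mean in AKG-free libraries and 2 the lower. ENSBTAG00000050611 on chromosome 27, which the deposited annotation places in the mucosal innate immune response, had 23.7, 103 and 232 FPKM in AKG-free libraries against 10.6, 5.26 and 12.3 FPKM in control libraries. It rose by a log2 fold change of 3.67 (SE 1.02, edgeR adjusted p = 0.0453), and by 2.75 without AKG-free library 3 (edgeR adjusted p = 0.0626). ENSBTAG00000052882, a long noncoding RNA on chromosome 7, had 75.8, 171 and 149 FPKM in AKG-free libraries against 57.0, 67.6 and 56.5 FPKM in control libraries, a log2 fold change of 1.13 (SE 0.642, edgeR adjusted p = 0.142). ENSBTAG00000053922, a long noncoding RNA on chromosome 4, had 0, 0 and 0 FPKM in AKG-free libraries against 4.87, 13.1 and 0 FPKM in control libraries. It fell at least 50-fold against the floor (edgeR adjusted p = 0.0497), although control library 3 also had no reads. Without control library 2 the bound was 20.3-fold (edgeR adjusted p = 0.105), and this gene passed in 1 of the 9 fits with a library dropped. ENSBTAG00000038893 on chromosome 5, annotated to chromosome segregation at mitosis, had 0.435, 0.456 and 1.21 FPKM in AKG-free libraries against 7.21, 1.48 and 6.12 FPKM in control libraries (log2 fold change -2.81, SE 0.902, edgeR adjusted p = 0.0524), and -3.46 without AKG-free library 3 (edgeR adjusted p = 0.0542). The other 8 had reads in a single AKG-free library, 7 of them in library 2.

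**Figure D2:**
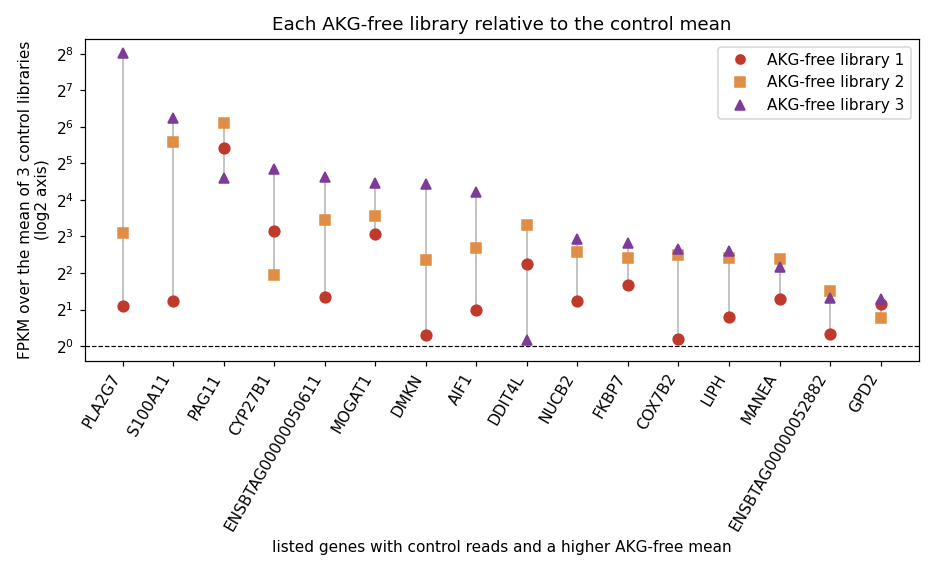
FPKM of each AKG-free library divided by the mean of the 3 control libraries, on a log2 axis, for the 16 listed genes with control reads and a higher AKG-free mean. The dashed line marks the control mean. Library 3 is highest for 12 genes, library 2 for 4 and library 1 for none, and the points of PLA2G7, S100A11 and DMKN are the farthest apart.

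The AKG-free libraries differed in how far they stood from the controls. For the 16 genes with control reads and a higher AKG-free mean, the median ratio to the control mean was 2.35 in AKG-free library 1, 5.79 in library 2 and 13.2 in library 3. Library 3 was the highest of the 3 for 12 of these genes, library 2 for 4 and library 1 for 0. Each AKG-free library was nevertheless above every control for 15 of the 16 genes, the exceptions being DMKN in library 1, GPD2 in library 2 and DDIT4L in library 3. Of the 9 genes with a lower AKG-free mean, 7, 8 and 8 lay below every control in libraries 1, 2 and 3. The median ratios describe genes that were selected on these libraries and carry no test.

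**Figure D3:**
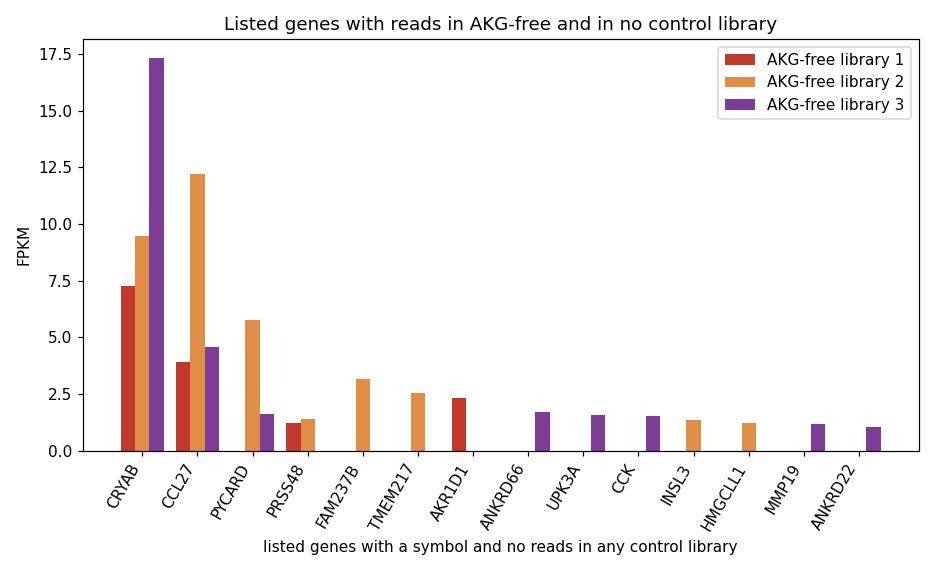
FPKM in the 3 AKG-free libraries for the 14 genes with a symbol that had no reads in any control library. CRYAB and CCL27 have bars in all 3 libraries, PYCARD and PRSS48 in 2, and the other 10 genes in 1, most of them under 3 FPKM.

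Detection in AKG-free libraries alone took different forms. CRYAB and CCL27 had reads in all 3 AKG-free libraries, PYCARD in libraries 2 and 3, and PRSS48 in libraries 1 and 2. The remaining 18 genes had reads in a single library, which was AKG-free library 1 for 1 gene, library 2 for 11 genes and library 3 for 6 genes. Their counts ran from 66 to 3434 with a median of 164, and their levels from 1.06 to 40.2 FPKM with a median of 2.08 FPKM. The highest level belonged to a gene without a symbol in library 3, and the next was 5.41 FPKM. edgeR over the 47 genes called 0 of these 18 genes, also at an unadjusted p under 0.05, with an adjusted p of 0.142 for each. DESeq2, with its outlier handling switched off, called 14 of them higher, where it called 33 of the 47 listed genes higher. edgeR with the replicate block called 17 of them, where it called 31 of the 47 higher, but whether replicate numbers pair the libraries is not known. limma called 0 of the 2 it tested. Without AKG-free library 2 the number of genes with reads in AKG-free and in no control library was 11 instead of 22.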

How the data were processed

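RNA of bovine blastocysts was amplified with a low-input SMART-Seq v4 kit and sequenced as read pairs, per the labels' protocols. The submitters' processing notes name edgeR, StringTie 1.3.4d, HISAT2 2.0.4 and cutadapt 1.9 without their roles. Build, annotation version and strand setting are not given in the sources used, so reads of overlapping or near-identical genes cannot be told apart. Per the file headers, the series table holds counts per gene and FPKM as deposited by the authors, and the FPKM of all 9 single-library tables were identical to it.

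The members, lists and tests were chosen with earlier results of these data known. The sum over 47 genes is not a library's depth. Relative depth was taken from the ratio of count to FPKM over 13 genes (100 counts or more in every library), with a largest deviation of 0.81%. Taking the annotated span as the length of the 4 genes that gave the largest ratio per base implies totals of 49200000 to 72300000, of which listed genes took at most 0.5%. That estimate assumes that these genes have no introns. A lower bound sets a group without reads at 3 counts per library, and covers counting error only, as amplified reads are not independent molecules.

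Counts of all 9 libraries were fitted with edgeR 4.0.16 (quasi-likelihood, relative depth as library size, no dispersion trend) in R 4.3.3, adjusted over the 47 genes. SEs are the log2 fold change over the square root of F. None is given for genes without reads in a group. Alternatives were DESeq2 1.42.0, limma 3.58.1 on log2(FPKM + 1) or log2(FPKM + 0.1) for the 29 genes with a mean of at least 0.5 FPKM, edgeR on these genes, other scalings, 6 libraries, a replicate block and leaving out libraries. DESeq2 was run with its outlier handling switched off, so a single high library could carry a call. The edgeR and limma code was tested on simulated counts with the same dispersion for every gene. That check does not cover the uneven AKG-free libraries or the groups without reads described above. An exact permutation test of 3 against 3 libraries cannot go below 0.10, so none was run. Genes with a symbol and a mean of at least 0.5 FPKM were named with all values, as was GATA5 (after its values were seen), others with the libraries that had reads, and at most 2 higher and 2 lower without a symbol. Python 3.11.15 with pandas 2.3.3 and matplotlib 3.10.9 was used for summaries and plots.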

Additional observations from a re-analysis of the deposited data

How the results depend on the processing

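Counts of called genes changed with nearly every choice, against 8 higher and 5 lower by edgeR over 47 genes. DESeq2 called 33 higher and 9 lower, limma 14 and 5 with a pseudocount of 1 and 17 and 8 with 0.1, and edgeR on the 29 genes of at least 0.5 FPKM 15 and 8. TMM factors and median-of-ratios size factors gave 1 and 5 each, and the 6 compared libraries alone 2 and 2. Leaving out 1 library gave 0 to 10 higher and 0 to 3 lower, and leaving out AKG-free libraries 2 and 3 together, an alternative chosen after seeing the data, 0 and 0 (edgeR, 13 genes at an unadjusted p under 0.05). Whether replicate numbers pair the libraries is not known. The deviations of same-numbered AKG-free and control libraries correlated at -0.22, -0.16 and 0.09, which cannot decide this with 3 libraries a group. With the replicate block edgeR called 31 higher and 7 lower. Groups did not overlap for 22 genes. With 1 library left out the number was 23 to 25, but it cannot fall when a library is removed and so does not measure stability. Genes with reads in AKG-free and no control library numbered 22, also at 10 counts, and 11 to 22 with 1 library left out. Direction turned only under rescaling over the listed genes, for GPD2 (-0.32 with TMM, -0.52 with median-of-ratios), ENSBTAG00000052882 (-0.51 and -0.74) and COX7B2 (-0.01 with median-of-ratios), none of them called. These scalings shift the median down by 1.64 and 1.82 by construction. All 13 calls were shared by DESeq2 and by the block fit. limma shared 10 with a pseudocount of 1 and 12 with 0.1, and edgeR on the 29 genes 12. Each rescaling shared 5, and edgeR on the 6 compared libraries alone only 3. GATA5 and TPRG1 rest on 40 to 83 and 32 to 102 counts in control libraries.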

Other observations

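Several listed genes lie near each other, in the coordinates of the deposited annotation (build not stated in the labels or headers). SYCP2, GNAS and GATA5, all with a lower AKG-free mean, lie on chromosome 13 between 54799166 and 57532635, and these are the only listed genes on that chromosome. PLA2G7 and ANKRD66 lie 6.88 kb apart on chromosome 23, on opposite strands. PLA2G7 had 147 FPKM in AKG-free library 3, against 0.348 to 0.781 FPKM in control libraries. ANKRD66 had 291 counts in AKG-free library 3 and 0 in the others. CYP27B1 and MMP19 lie 1.72 Mb apart on chromosome 5, and both were highest in AKG-free library 3. Chromosome 23 held 6 listed genes, the most of any chromosome. These placements were noticed after the values were seen and carry no test.

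Of the 22 genes with reads in AKG-free and in no control library, 20 also had no reads in the 3 AKG-treated libraries. The 2 with reads there were CRYAB and CCL27, at 0.464 and 0.455 FPKM at most. Of the 22 genes, 18 had reads in only 1 AKG-free library, and the list was selected on these libraries. Absence from the AKG-treated libraries may thus follow from the selection, and it carries no test of AKG.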
